A study of Homo sapiens with 8 samples.

Results

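HLA class I and class II genes were followed through 8 lists of accessible regions from mitotic human cells. The 9 genes were HLA-B, HLA-C, HLA-E, B2M and TAP1 for class I, and HLA-DRA, HLA-DPA1, HLA-DQA1 and CIITA for class II, out of 19970 protein-coding genes with coordinates in the RefSeq table of GRCh38.p14. They were chosen by name, and every peak that reached into the gene or the 2 kb on either side of it by at least 1 bp was taken. The libraries came from ATAC-seq, in which the transposase Tn5 cuts and tags open DNA, on hTERT RPE-1, a telomerase-immortalised line from human retinal pigment epithelium. All cells lacked endogenous Plk1, a mitotic kinase (genotype Plk1-/-), and carried EGFP-Plk1as, a tagged form that the purine analog 3MB-PP1 can block. All were held in prometaphase with 5 µM STLC, a kinesin-5 inhibitor, for 16 h, collected by shake-off, and then kept in STLC for 2 h with 0.5% DMSO or with 10 µM 3MB-PP1. Each treatment has 4 libraries of 50000 cells. The study asks what Plk1 activity does to the accessibility of mitotic chromosomes. The 4 libraries of a group are biological replicates in the study's own description. In such bulk libraries, fewer cells with an open site and a less open site in each cell cannot be told apart.

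HLA class I molecules sit on nearly all nucleated cells and show peptides from inside the cell to CD8+ T cells. Their heavy chains, HLA-B, HLA-C and the less variable HLA-E, pair with B2M, and TAP1 is a subunit of the transporter that brings peptides into the endoplasmic reticulum. Class II molecules show peptides from outside the cell to CD4+ T cells and are normally made by B cells, dendritic cells and macrophages, or by other cells after interferon-gamma. HLA-DRA, HLA-DPA1 and HLA-DQA1 encode alpha chains, and CIITA is the co-activator that class II promoters need. Promoters of both classes share an S-X-Y module bound by RFX, CREB and NF-Y factors, and class I promoters also carry an enhancer A for NF-κB and an interferon-responsive element for IRF factors.

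The sequences below are the 250 bases before an annotated start (126 for B2M, where the neighbouring gene PATL2 takes up the rest), from the RefSeq promoter table of GRCh38.p14, which held 6 of the 9 genes. HLA-E, HLA-DRA and CIITA had no entry. They are shown because the class I peaks covered them in full in 8 of 8 lists and the class II peaks did not. Capitals mark matches on either strand to GATTGG (core of the Y box), TGACG (core of the X2 box), GGGGATTCC (enhancer A), GAAGTGAAA (within the IRF element of class I promoters), GAAANNGAA (the first bases of the core of the interferon-stimulated response element) and GGGCGG (the GC box).
HLA-B, chr6:31357180-31357429, minus strand: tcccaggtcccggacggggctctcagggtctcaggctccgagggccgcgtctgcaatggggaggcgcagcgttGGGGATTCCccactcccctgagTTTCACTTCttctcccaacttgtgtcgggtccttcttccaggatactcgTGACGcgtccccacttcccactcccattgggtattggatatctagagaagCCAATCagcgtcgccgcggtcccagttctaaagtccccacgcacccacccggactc
HLA-C, chr6:31272093-31272342, minus strand: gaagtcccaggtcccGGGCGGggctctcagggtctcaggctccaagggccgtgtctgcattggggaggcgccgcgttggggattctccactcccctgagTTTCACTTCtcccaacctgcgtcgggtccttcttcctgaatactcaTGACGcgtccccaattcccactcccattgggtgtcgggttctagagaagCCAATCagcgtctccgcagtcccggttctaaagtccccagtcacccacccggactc
B2M, chr15:44711391-44711516, plus strand: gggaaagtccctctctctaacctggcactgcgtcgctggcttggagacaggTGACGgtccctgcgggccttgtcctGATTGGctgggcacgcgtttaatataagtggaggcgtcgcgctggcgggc
TAP1, chr6:32853705-32853954, minus strand: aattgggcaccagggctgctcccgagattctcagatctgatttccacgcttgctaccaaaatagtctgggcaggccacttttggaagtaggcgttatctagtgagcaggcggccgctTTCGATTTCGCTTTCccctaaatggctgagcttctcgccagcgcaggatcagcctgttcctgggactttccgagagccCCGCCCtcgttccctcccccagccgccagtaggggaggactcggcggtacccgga
HLA-DPA1, second annotated start, chr6:33073650-33073899, minus strand: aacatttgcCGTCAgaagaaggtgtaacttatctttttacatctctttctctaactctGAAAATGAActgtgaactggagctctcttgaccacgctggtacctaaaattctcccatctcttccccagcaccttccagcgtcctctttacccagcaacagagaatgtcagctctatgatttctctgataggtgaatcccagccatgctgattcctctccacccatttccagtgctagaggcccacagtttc
HLA-DQA1, chr6:32637156-32637405, plus strand: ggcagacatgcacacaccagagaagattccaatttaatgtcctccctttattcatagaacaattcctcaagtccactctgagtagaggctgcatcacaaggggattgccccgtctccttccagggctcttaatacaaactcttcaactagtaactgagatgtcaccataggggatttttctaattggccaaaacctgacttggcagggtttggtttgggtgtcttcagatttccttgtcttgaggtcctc

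HLA-B and HLA-C held the Y box core at the same place, 56 to 51 bases before the start. Both also held the X2 core and the IRF element, the latter 155 to 147 bases before the start in HLA-B and 151 to 143 in HLA-C. In HLA-B the enhancer A match lay 177 to 169 bases before the start. B2M had the X2 core 75 to 71 and the Y core 50 to 45 bases before its start. TAP1 held overlapping matches to the response element, 133 to 125 and 127 to 119 bases before the start, and a GC box. HLA-DPA1 held 1 X2 core, 241 to 237 bases before the start, and 1 match to the response element, and HLA-DQA1 held none of the letters searched. Over the 250 bases before 22131 starts of protein-coding genes in the table, 16.0% held GATTGG, 24.1% TGACG, 0.289% GGGGATTCC, 0.393% GAAGTGAAA, 6.07% GAAANNGAA and 53.7% GGGCGG. These are matches of letters, not measured sites.

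The lists held 150577 to 199042 peaks with DMSO and 170682 to 252752 with 3MB-PP1 on chromosomes 1 to 22 and X, and read depth is unknown because they give no read totals. The median peak was 355 to 409 bp long with DMSO and 269 to 324 bp with 3MB-PP1. Libraries numbered 1 and 3 had 0.868% to 0.933% of their peaks on chromosome X, and those numbered 2 and 4 had 0.595% to 0.694%, in both groups. Differences for the genes below are therefore also given within odd and even numbers. As a check of the cell type, 6 of 7 epithelial and RPE-1 line markers had a peak near a gene start or end in 8 of 8 lists, including VIM, CDH2 and YAP1, but KRT19 had one in 1 list. Of 7 markers of retinal pigment epithelium only MITF, OTX2 and PMEL were called in 8 of 8 lists, and RPE65 was called in none. Of 8 markers of antigen-presenting blood cells, 1 (SPI1) was called in 8 of 8 lists, and PTPRC and MS4A1 in none. Among peaks with a -log10 q of at least 5, 4 of 7, 0 of 7 and 0 of 8 of these markers were called in 8 of 8 lists, and 1, 5 and 8 in none. In the gene windows with 2 kb flanks, 32.8% of all genes were called in 8 lists at this minimum and 38.5% in none. The share of all genes by the narrower rule used for markers is not given here, which limits this check. With all peaks, 47.1% of 22131 protein-coding starts were covered in 8 of 8 lists, a narrower test than the 1 kb around a start or gene end used for markers.

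Most class I and class II genes were called, and by pileup the best peaks of HLA-DRA, HLA-DPA1 and HLA-DQA1 ranked below those of every class I gene in each list. All 5 class I genes had a peak in 8 of 8 lists, as did 3 of 4 class II genes, and HLA-DRA had one in 7. Over all protein-coding genes 80.0% were called in 8 of 8 lists and 96.1% in at least 1, so these counts alone set neither class apart. Among peaks with a -log10 q of at least 5, the peak caller's adjusted p on a log scale, 32.8% of all genes were called in 8 of 8 lists and 61.5% in at least 1. HLA-B, HLA-C, B2M and TAP1 were among them, and HLA-E was called in 7. CIITA was also called in 7, HLA-DRA in 3, and HLA-DPA1 and HLA-DQA1 in none. With 3MB-PP1 the CIITA calls came only from a peak shared with the overlapping gene DEXI. In chr16:10870295-10872180 and chr16:10876546-10879873, which overlapped CIITA alone, the largest -log10 q was 9.46 and 9.76 with DMSO. With 3MB-PP1 it was 4.21 and 3.92, below the minimum. This difference in -log10 q was not tested, and the unknown read depth may differ between lists. Of 54 class I peaks 46 passed this minimum, against 17 of 160 class II peaks, 14 of which lay in the CIITA window. These counts take the same site in up to 8 lists, and the share over all peaks is not given here. Of the class I peaks 16 lay in the TAP1 window, some of them at PSMB8. The largest -log10 q was 38.0 at HLA-C, 36.9 at TAP1, 30.8 at B2M, 25.7 at HLA-B and 14.9 at HLA-E. For class II it was 21.1 in the CIITA window, above HLA-E, then 6.62 at HLA-DRA, 3.67 at HLA-DQA1 and 2.81 at HLA-DPA1. The 21.1 came from 1 library, 3MB-PP1 replicate 1, in a 431 bp peak at DEXI. The same site had at most 13.4 in the DMSO lists and 11.1 in the other 3MB-PP1 lists, below the largest HLA-E value.

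Strength was compared as the percentile of a peak's pileup, the fragment coverage in the peak, among all peaks of its own list, because the deposited pileup has no stated scaling between libraries. Each gene was represented by its peak of highest pileup, called the best peak here. The median gene with any peak had its best peak at a percentile of 93.7 to 94.9 in the DMSO lists and 92.4 to 95.3 in the 3MB-PP1 lists. The class I genes lay above this level, with class medians of 97.4 to 97.9 with DMSO and 97.8 to 98.6 with 3MB-PP1. Class II medians were 65.9 to 74.3 and 66.0 to 83.0. TAP1 was above 87.6% to 93.9% of all protein-coding genes in the 8 lists, and HLA-C above 83.7% to 91.1%. HLA-E was the lowest of the class I genes in every list by this measure, above 57.9% to 68.3% of genes. Of the class II genes CIITA, through a peak it shares with DEXI, was above 65.8% to 88.5% of genes, and it outranked HLA-E in 7 of 8 lists. HLA-DRA was above 20.0% to 37.4% of genes in its 7 lists, HLA-DPA1 above 22.9% to 30.5% and HLA-DQA1 above at most 23.9%.

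**Figure D1:**
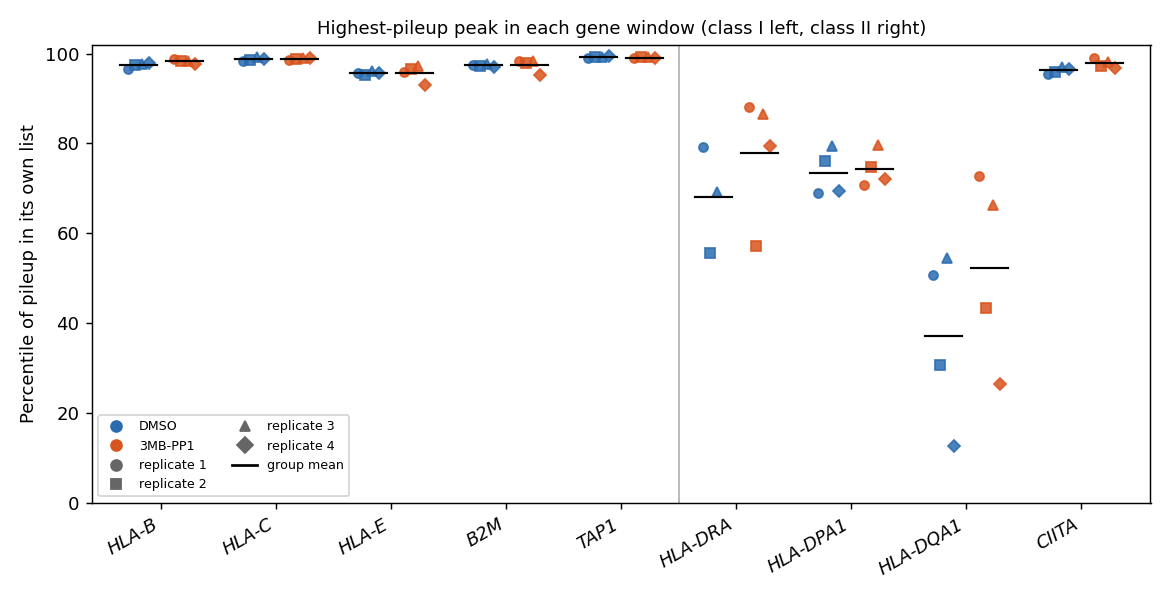
Percentile of pileup, within its own list, of the highest-pileup peak in each gene window (y axis, 0 to 100) for 5 class I genes on the left and 4 class II genes on the right; symbols are single libraries, blue for DMSO and orange for 3MB-PP1, and bars are group means. Class I peaks all lie between 93.1 and 99.5, whereas HLA-DQA1 ranges from 12.7 to 72.7 and HLA-DRA has no symbol for DMSO replicate 4.

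HLA-C had a single peak in each list, and it covered the start in 8 of 8. Its pileup was 74.7, 70.6, 102.2 and 52.3 in DMSO replicates 1 to 4 and 41.1, 42.9, 48.2 and 41.8 in 3MB-PP1 replicates 1 to 4. The percentiles were 98.4, 98.7, 99.1 and 98.8 with DMSO and 98.6, 98.9, 99.0 and 99.1 with 3MB-PP1. The percentiles of the groups overlapped. The pileups, whose scale may differ between libraries, were not compared. The difference in percentile was 0.14 (exact two-sided permutation test over 70 assignments of the 8 libraries, p = 0.543, Benjamini-Hochberg adjusted p = 0.871 over 15969 genes). HLA-B, the neighbouring heavy chain gene, had percentiles of 96.7, 97.5, 97.7 and 97.9 with DMSO and 98.8, 98.4, 98.4 and 97.8 with 3MB-PP1. All but replicate 4 of the 3MB-PP1 lists lay above all DMSO lists, and the difference of 0.91 missed the threshold (exact permutation p = 0.0571, adjusted p = 0.541; odd numbers 1.42, even numbers 0.41). HLA-B and HLA-C are close copies of each other and of other HLA genes, so reads may have been placed at either, and their values are uncertain to that extent. The lists name no alternate haplotype sequence of the HLA region.

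HLA-E presents leader peptides of other class I chains to NK cell receptors. Its peak over the gene's lower coordinate end, chr6:30489108-30490895 over all lists, had a -log10 q of 14.9, 9.31, 14.4 and 6.36 with DMSO and 6.75, 6.50, 8.01 and 2.97 with 3MB-PP1. Its percentile averaged 95.7 in both groups, with an SD of 0.335 for DMSO and 1.85 for 3MB-PP1 (n = 4 each), and 3MB-PP1 replicate 4 was the lowest at 93.1. B2M, the shared light chain, gave 97.4 ± 0.299 and 97.5 ± 1.52 (SD, n = 4 each), again with 3MB-PP1 replicate 4 lowest, at 95.2. For TAP1 the groups were at 99.2 ± 0.196 (SD, n = 4) and 99.1 ± 0.163 (SD, n = 4). The best TAP1 peak, chr6:32852773-32855031 over all lists, also reached the start of PSMB9, an immunoproteasome subunit gene, so the 2 genes share it. A second peak in the TAP1 window, chr6:32843544-32845037, overlapped PSMB8 and PSMB8-AS1 rather than TAP1. The B2M peak likewise reached into PATL2.

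None of the 8 genes with a peak in all lists had percentiles that separated the treatments. Over all 15969 genes tested, 4.29% were higher and 1.28% lower with 3MB-PP1 without overlap of the groups. By this test 0 of all genes passed an adjusted p of 0.05 in any of the 4 measures used here, and 889 genes reached the smallest exact p of 0.0286 for the percentile. With 70 assignments, an adjusted p of 0.05 needs 57.1% of the genes tested to reach that smallest p together. The count of 0 therefore cannot show that no gene differed. In lists reduced to 150577 peaks each, 7 of the genes had a peak in all. Of these HLA-B (difference 0.69) and CIITA (1.37) were higher and TAP1 (-0.32) was lower with 3MB-PP1 without overlap (exact permutation p = 0.0286 for each), beside 2.61% of all genes higher and 8.33% lower.

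In the lists as deposited, lengths separated the groups for more genes than rank did, both among these genes and over all genes. This did not hold for these genes in lists of equal length. There covered length was lower for 2 and higher for 0, against 10.8% and 0.64% of all genes, and rank was lower for 1 and higher for 2. The covered length is the number of base pairs of a window that lie in peaks. Of the 9 genes 2, HLA-E and B2M, had less covered length with 3MB-PP1 without overlap of the groups, against 6.26% of 19196 genes tested, and 0 had more, against 1.16%. HLA-E had 1566, 1692, 1742 and 1700 bp in DMSO replicates 1 to 4 and 1420, 1431, 1450 and 1516 bp in 3MB-PP1 replicates 1 to 4. Every 3MB-PP1 library was thus below every DMSO library, with a mean difference of -220.75 bp (p = 0.0286 by the exact permutation test, adjusted p = 0.385). The difference was -219 bp among odd and -222.5 bp among even numbers. B2M had 1523, 1038, 1039 and 1103 bp with DMSO and 883, 950, 990 and 986 bp with 3MB-PP1. DMSO replicate 1 stood far above the rest, and the difference of -223.5 bp (exact permutation p = 0.0286, adjusted p = 0.385; odd -344.5, even -102.5 bp) was -107.75 bp without it. When treatment was exchanged only within same-numbered pairs, both genes had a p of 0.125, the smallest that 16 such exchanges allow, with 4 of 4 pairs lower. Per Mb covered in the whole list, the groups overlapped for both genes (exact permutation p = 0.8 for HLA-E and 0.657 for B2M).

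The other class I genes had overlapping groups. HLA-C had 1714.5 ± 222 bp (SD, n = 4) with DMSO and 1518.25 ± 199.7 bp (SD, n = 4) with 3MB-PP1, lower in 4 of 4 pairs (exact permutation p = 0.2). HLA-B had 1249.25 ± 207 and 1097.25 ± 313 bp (SD, n = 4 each; exact permutation p = 0.4). TAP1 had 3379.75 ± 354 and 3221.5 ± 372 bp (SD, n = 4 each; exact permutation p = 0.514). The median difference over the 5 class I genes was -196.25 bp, beside -165.25 bp over all genes tested, of which 68.1% had less covered length with 3MB-PP1.

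**Figure D2:**
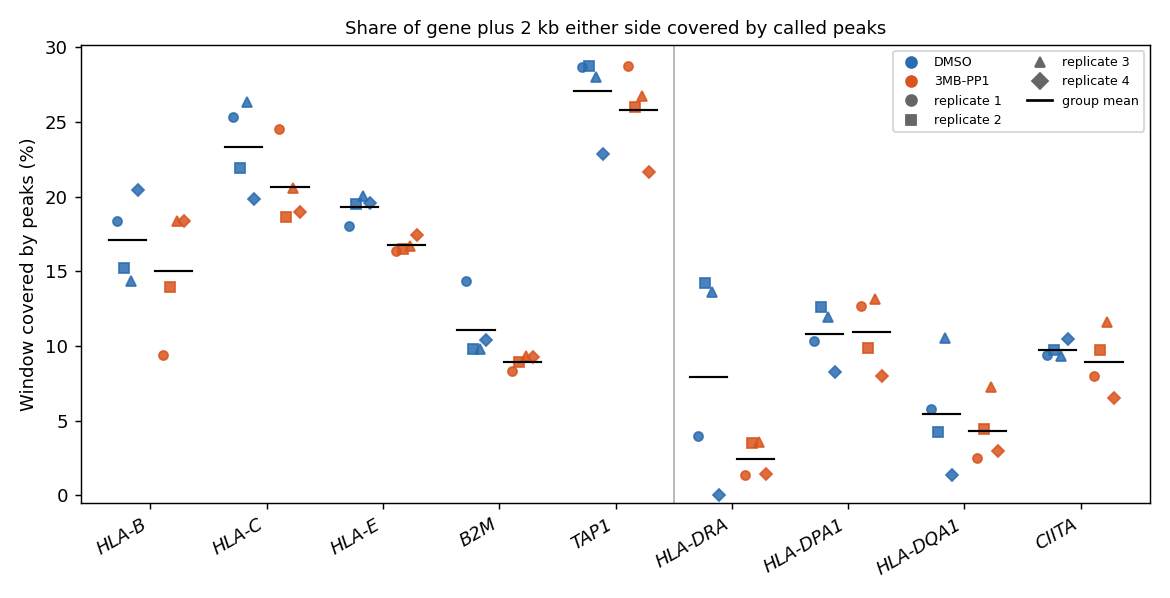
Percent of each gene window (gene and 2 kb either side) covered by called peaks (y axis) in the 8 libraries; symbols are libraries, blue for DMSO and orange for 3MB-PP1, and bars are group means. The 4 orange HLA-E and B2M symbols lie below all 4 blue ones, while the groups overlap for the other 7 genes.

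Peaks filled more of the class I windows than of the class II windows in every library. They covered 18.5% to 21.3% of the 5 class I windows with DMSO and 17.1% to 18.6% with 3MB-PP1. For the 4 class II windows the ranges were 7.91% to 10.2% and 5.81% to 10.6%, and for all protein-coding windows 3.95% to 4.97% and 3.42% to 4.32%. The class II windows are longer, 132023 bp in all against 46460 bp, and the windows of all 19970 genes sum to 1372969651 bp. A peak of a given length fills less of a longer window, and the shares were not compared at equal window length. Peaks per 10 kb differed less between the classes. Class I windows held 1.45 ± 0.206 peaks per 10 kb in both groups (SD, n = 4 each), and class II windows 1.34 ± 0.218 with DMSO and 1.69 ± 0.426 with 3MB-PP1. HLA-C and B2M had exactly 1 peak and TAP1 exactly 2 in every list. By contrast HLA-DPA1 had 2 to 6, HLA-DQA1 2 to 6 and CIITA 7 to 14. The number of peaks separated the groups for 0 of 9 genes, against 2.50% of all genes higher and 0.125% lower with 3MB-PP1.

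HLA-DRA encodes the invariant alpha chain of HLA-DR. In DMSO replicates 1 to 3 its start peak was 365, 1301 and 734 bp long, and DMSO replicate 4 had no peak in the window, its nearest being 4816 bp from the start. In 3MB-PP1 replicates 1 to 4 it was 123, 160, 125 and 129 bp long. The shortest peak anywhere in a list was 135, 125 and 126 bp in DMSO replicates 1 to 3 and 90 to 109 bp with 3MB-PP1. The narrow peaks thus lay near this floor, and one of 123 bp was shorter than any peak of those DMSO lists. The 4 narrow peaks began within 6 bp of each other, between 32439740 and 32439746 on chromosome 6, whereas the 3 DMSO peaks began up to 768 bp apart. All 7 shared 119 bp, from 32439746 to 32439864, which is 141 to 23 bp before the lower end of the gene at 32439887. The DMSO peaks ran past that point in 3 of 3 lists and the 3MB-PP1 peaks in 1 of 4. Lengths of the groups did not overlap, with 800 ± 471 bp (SD, n = 3) and 134.25 ± 17.3 bp (SD, n = 4), but the exact two-sided permutation p of 0.0571 is the smallest that 3 against 4 libraries allow.

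The narrow HLA-DRA peaks were short for their lists as well. They stood at a length percentile of 7.39 to 20.5 in the 3MB-PP1 lists, against 45.1 to 90.9 in the DMSO lists. Without DMSO replicate 4, 3.64% of 16064 genes had a lower length percentile with 3MB-PP1 without overlap and 27.4% a higher one. In bp, 26.0% were shorter and 0.448% longer. Within each group, the shorter the peak, the higher were its pileup percentile and its -log10 q. Strength and length were thus not separate observations here, and whether a shorter call raises these values was not tested. Pileup percentiles were 79.2, 55.7 and 69.2 in DMSO replicates 1 to 3 and 88.2, 57.2, 86.5 and 79.4 with 3MB-PP1, and the -log10 q was 5.17, 1.79 and 3.51 against 6.62, 2.26, 5.07 and 4.04. A second, weaker region inside the gene was called in 1 DMSO and 2 3MB-PP1 lists. The length comparison was made after these values had been seen.

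**Figure D3:**
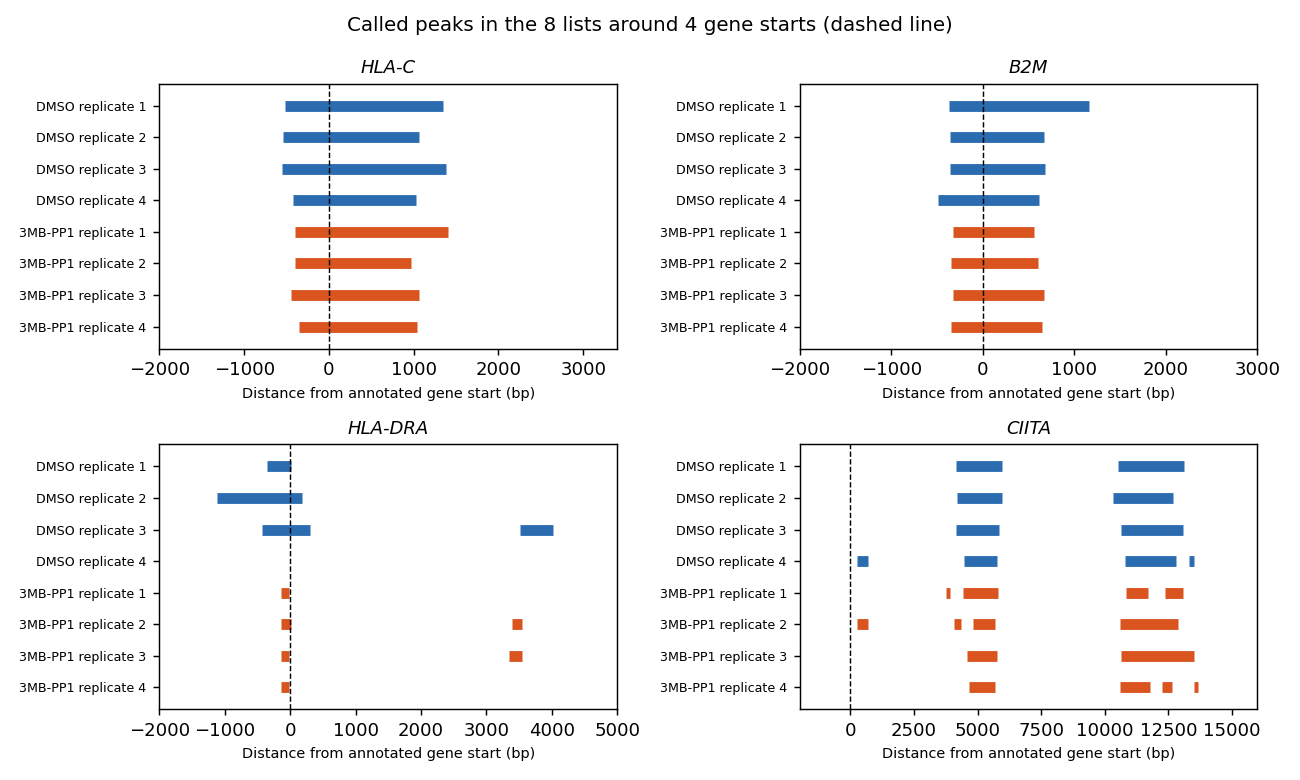
Called peaks in the 8 lists, DMSO in blue and 3MB-PP1 in orange, against distance in bp from the annotated start (dashed) of HLA-C, B2M, HLA-DRA and CIITA; each bar is 1 peak and negative distances lie before the start. HLA-C and B2M peaks span the start in every list, the 4 orange HLA-DRA bars at the start are 123 to 160 bp long, and no CIITA peak covers the lower end of the gene, which stands for its start.

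The HLA-DPA1 and HLA-DQA1 windows held weak and scattered calls. Their best peaks lay at different places in different lists and had -log10 q values of 1.60 to 2.44 and of 1.19 to 3.67. Of 6 merged regions in the HLA-DPA1 window 1, chr6:33068660-33069615 inside the gene, was called in 8 of 8 lists. A region at the second annotated start, chr6:33072555-33073931, was called in 4 DMSO and 3 3MB-PP1 lists, and one at the start of HLA-DPB1, the beta chain gene beside it, in 4 and 3. The first annotated HLA-DPA1 start, at 33080748, was covered in no list. The HLA-DQA1 start was covered in 1 of 8 lists, and of 11 merged regions in its window 0 were called in 8 lists and 6 in a single one. The HLA-DQA1 percentile was higher with 3MB-PP1 in 4 of 4 pairs, with 37.2 ± 19.4 for DMSO and 52.2 ± 21.3 for 3MB-PP1 (SD, n = 4 each). That difference of 15.0 was within the spread between libraries (exact permutation p = 0.314).

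CIITA is transcribed from several alternative promoters in different cell types. The gene spans 10866206 to 10943021 on chromosome 16, and 4 of the 25 merged regions in its window were called in 8 of 8 lists. The strongest, chr16:10941313-10942825, lay over the upper coordinate end of DEXI, a gene within the same span, and the fourth, chr16:10944207-10945031, lay at CLEC16A. The CIITA percentiles in the plot of pileup ranks are those of the DEXI peak, with means of 96.2 (SD 0.612) for DMSO and 97.8 (SD 0.986) for 3MB-PP1, n = 4 each. The percentile was higher in 4 of 4 same-numbered pairs, and the difference of 1.56 missed the threshold (exact permutation p = 0.0571, adjusted p = 0.541; odd 2.35, even 0.78). The other 2 regions overlapped CIITA alone. In the first, chr16:10870295-10872180, peaks covered 1652.5 ± 253 bp (SD, n = 4) at percentiles of 92.4 to 94.5 with DMSO. With 3MB-PP1 they covered 1180.75 ± 150 bp (SD, n = 4) at 88.6 to 93.2. In the second, chr16:10876546-10879873, the values were 2397.5 ± 164 bp at 93.0 to 95.5 and 2120.75 ± 600 bp at 91.8 to 93.5 (SD, n = 4 each). The groups overlapped in both regions and both measures, and the best -log10 q over both was 9.76. The lower end of the gene was covered in no list.

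Across all 9 windows the 8 lists merged into 53 regions, 11 of them called in 8 of 8 lists and 19 in 1. None was called in 4 of 4 lists of a treatment and 0 of 4 of the other. Regions in 8 lists made up 6 of 9 class I regions and 5 of 44 class II regions. They include the PSMB8 site for class I and the sites at DEXI and CLEC16A for class II. The shares over merged regions of all gene windows are not given here, so these counts alone set neither class apart. Annotated starts of HLA-B, HLA-C, B2M, TAP1 (the first of 2) and the lower end of HLA-E were covered in 8 of 8 lists, as were 47.1% of the 22131 protein-coding starts in the promoter table. No class II start examined was. For HLA-DRA and CIITA only the lower end of the gene was examined, so the starts of the alternative CIITA promoters were not.

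Best-peak length itself separated the groups for 1 of the 8 genes tested, B2M, which was shorter with 3MB-PP1 (adjusted p = 0.223, exact permutation p = 0.0286), against 12.7% of all genes shorter and 0.157% longer. Relative to their lists, however, the class I peaks did not become shorter. HLA-E best peaks were at a length percentile of 94.5 ± 1.21 for DMSO and 96.8 ± 0.730 for 3MB-PP1 (SD, n = 4 each), without overlap (exact permutation p = 0.0286). For B2M the length percentile was 88.6 ± 3.82 and 91.5 ± 0.992 (SD, n = 4 each), with overlap. HLA-B, HLA-C and TAP1 also had higher mean length percentiles with 3MB-PP1, by 3.38, 1.39 and 1.17, each with overlap. Over all genes 17.0% had a higher and 1.60% a lower length percentile with 3MB-PP1 without overlap, so the direction seen for class I genes was the common one.

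**Figure D4:**
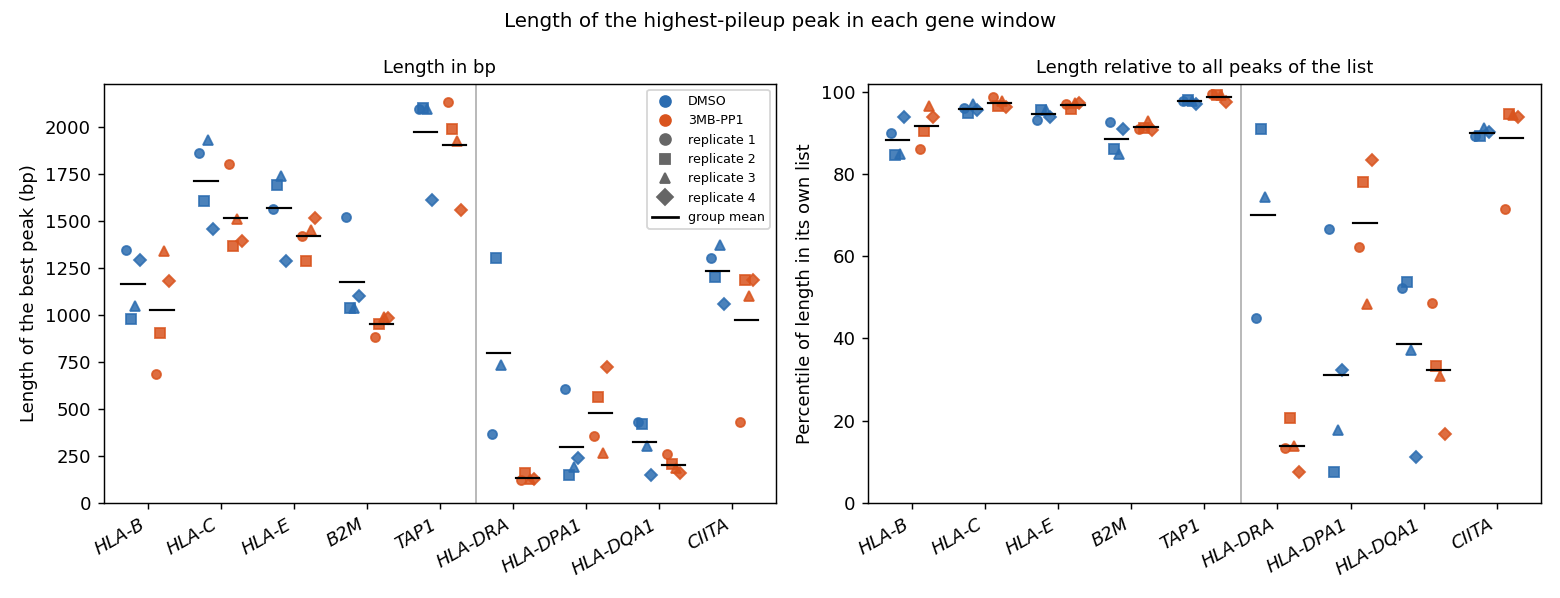
Length of the best peak in each gene window in bp (left) and as a percentile of all peak lengths in its own list (right), by library, blue for DMSO and orange for 3MB-PP1, with group means as bars. The 5 class I genes lie at a length percentile of 84.6 or more in all libraries, and HLA-DRA lies at 45.1 to 90.9 with DMSO and at 7.39 to 20.5 with 3MB-PP1.

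Other genes of antigen presentation were counted in the same way, beside the 80.0% of all genes called in 8 of 8 lists and the 32.8% called in 8 at a -log10 q of at least 5. All 13 further class I pathway genes listed were called in 8 of 8 lists, and 7 kept calls in all 8 among peaks with a -log10 q of at least 5: TAP2, PSMB8, PSMB9, CALR, CANX, PDIA3 and ERAP1. These 7 are not independent of each other or of TAP1: the PSMB9 peak is the best TAP1 peak, and TAP2 and PSMB8 had the same best-peak percentile and length in every list. HLA-G, a class I gene of the placenta, and ERAP2 had none at that minimum. Of 12 further class II pathway genes, 9 were called in 8 of 8 lists, and 3 of 12 at the minimum, namely RFX5, RFXAP and RFXANK, which encode the RFX complex that also serves class I promoters. HLA-DPB1, HLA-DQB1, HLA-DMB, HLA-DOA, HLA-DOB, CTSS and IFI30 had no call at the minimum. All 7 regulators listed were called in 8 lists, and those called in 8 at the minimum included NFYA, NFYB and NFYC, the subunits of NF-Y, and CREB1. In covered length 0 of 13 class I pathway genes, 1 of 12 class II pathway genes and 1 of 7 regulators were lower with 3MB-PP1 without overlap, and 0 were higher, against the same 6.26% and 1.16% of all genes. The class II gene was HLA-DMB, a chaperone of peptide loading, with 1876, 1871, 2251 and 1865 bp in DMSO replicates 1 to 4 and 1779, 1508, 1485 and 238 bp in 3MB-PP1 replicates 1 to 4. The regulator was IRF1, an interferon-induced activator of class I genes, with 1587, 1950, 2294 and 1605 bp and 1391, 1146, 1239 and 771 bp. The 3MB-PP1 library numbered 4 was the lowest for both genes (exact permutation p = 0.0286, adjusted p = 0.385 for each). Best peaks were shorter with 3MB-PP1 without overlap for 0 of 13 class I pathway genes, 2 of the 9 class II pathway genes tested and 3 of 7 regulators, beside 12.7% of all genes, and longer for 0. The class II genes were HLA-DMB and CD74, the invariant chain that guards the class II groove, and the regulators were IRF1, NFYB and CREB1 (exact permutation p = 0.0286, adjusted p = 0.223 for each). The CD74 best peak was 1763, 1085, 1044 and 578 bp long with DMSO and 409, 576, 542 and 429 bp with 3MB-PP1, so DMSO replicate 4 lay just above the 3MB-PP1 range. In pileup percentile 0 genes of the 3 lists had separate groups.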

How the data were processed

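Per the submitters' processing notes MACS2 and build hg38 were used. Versions, settings, the aligner, read filters, any Tn5 shift and the control are not given in the sources used here, and each can change peak number and length. Each library has its own deposited list. The lists have no header. Read from their values and the column order of a MACS2 broad peak table, the authors' lists give start (counted from 1), end, length, pileup (a signal of fragment coverage), -log10 p, fold enrichment (a ratio to background) and -log10 q, at least 1.00 in every list. The deposited length is a value in bp. These peak values are the authors' and serve here only to rank, filter or describe peaks of the same list.

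Libraries were grouped by title. Chromosomes 1 to 22 and X and RefSeq genes of GRCh38.p14 were used. The table gives no strand, so starts come from the promoter table, or for HLA-E, HLA-DRA and CIITA from the lower coordinate of the gene. Covered length and number of peaks were tested in every protein-coding gene with a peak in at least 1 list (19196), and percentile and length of the best peak in those with one in 8 of 8 (15969; HLA-DRA is not among them). The test was an exact two-sided permutation over 70 assignments, with Benjamini-Hochberg adjustment over all genes, and 0.05 was the threshold. The members and lists were chosen with earlier results of these data known. All 9 members are named. Other pathway genes are given by counts, with values only for those called in 8 or 0 lists, with groups that did not overlap in covered length or percentile, or inside a member's window. The genes with separate best-peak lengths were named after their values were seen, and 1 regulator is not reported here.

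Same-numbered libraries of the 2 groups deviated together: over covered length in 19196 genes the correlations of their deviations from the group means were 0.204 to 0.514 in the 4 pairs, against -0.444 to 0.349 for other pairs. Not every library correlated best with its own number. DMSO replicate 2 gave 0.349 with 3MB-PP1 replicate 4, and 3MB-PP1 replicate 2 gave 0.289 with DMSO replicate 4, against 0.204 between the replicates numbered 2. Deviations from a group mean also cancel out within a group, so positive same-numbered values lower the others. The labels do not say what a number marks, and whether the numbers mark pairs is not settled. The alternatives tried were only peaks with a -log10 q of at least 5, lists of equal length (150577 peaks), other windows, peaks wholly inside the window, rank by -log10 p, relative lengths, peaks of at least 300 bp, leaving out each library and the replicate block. The split by odd and even numbers and the HLA-DRA length were added after the data were seen. Functions were tested on simulated data. The software was scipy 1.17.1, pandas 2.3.3 and numpy 2.4.6 under Python 3.11.15, with matplotlib 3.10.9 for plots.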

Additional observations from a re-analysis of the deposited data

Results flagged for a closer look

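Dixon's test for a single library apart from the other 3 of its treatment was run on each gene and measure. Of 64 groups of 4 libraries, 11 exceeded its critical value, and chance gives about 1 in 20. Several of the 11 are the same peak seen through 2 measures, and the numbers of peaks are small whole numbers. B2M in DMSO replicate 1 had a covered length and a best-peak length of 1523 bp, against 1038 to 1103 bp in the other DMSO lists. In 3MB-PP1 replicate 4 the B2M pileup percentile was 95.2, below the 98.0 to 98.4 of its group. For TAP1, DMSO replicate 4 had a covered length of 2852 bp against 3496 to 3591 bp, and a best-peak length of 1611 bp against 2094 to 2102 bp. The HLA-DRA best peak was 160 bp long in 3MB-PP1 replicate 2 and 123 to 129 bp in the others. In the CIITA window the best peak, which lay at DEXI, was 431 bp long in 3MB-PP1 replicate 1 and 1103 to 1185 bp in the others. The CIITA window held 14 peaks in DMSO replicate 4 against 7 to 8, and 9 in 3MB-PP1 replicate 4 against 14. HLA-E had 2 peaks in DMSO replicate 4 and in 3MB-PP1 replicate 2, and 1 in each other list.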

How the results depend on the processing

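Values are 3MB-PP1 minus DMSO, or numbers of genes whose groups did not overlap, and the cause of a change was not tested. Where no share of all genes stands beside a count, none is given here, and the count cannot be read as particular to these genes. In the lists as deposited, 12.7% of all genes had shorter best peaks with 3MB-PP1 without overlap. Class I genes stayed at 4 or 5 of 5 called in 8 of 8 lists under every alternative run. With a -log10 q of at least 5, 0 class II genes were called in 8 lists, the class difference in covered share was 15.8 points (10.2 with all peaks), covered length was lower in 1 gene, and the percentile was lower in 1 gene (TAP1, -8.91), with -2.26 for HLA-B, -6.98 for HLA-C and -10.7 for B2M. Over all genes at this minimum, 13.9% were lower in covered length and 16.7% in percentile. Lists of equal length gave 1 gene lower and 2 higher in percentile, with -0.12 for HLA-C, -0.18 for B2M and -1.45 for HLA-DPA1. Of all genes 8.33% were lower and 2.61% higher in that setting. Within the gene alone covered length was lower in 0 genes, against 4.82% of all genes, and HLA-DPA1 differed by -429.5 bp in covered and -115.75 bp in best-peak length. With flanks of 5 kb the class difference was 4.15 points, best-peak length was lower in 2 genes, and covered length differed by 32.5 bp at HLA-B and -163.75 bp at HLA-DPA1 and best-peak length by 128.75 bp at HLA-DQA1. Per Mb covered in the list covered length was lower in 0 genes, against 2.33% of all genes, with 0.0285 bp for HLA-C, 2.34 for TAP1 and 1.44 for CIITA. As a percentile, best-peak length was lower in 0 genes and higher in 1, against 1.60% and 17.0% of all genes, with 3.38, 1.39, 2.28, 2.84 and 1.17 for HLA-B, HLA-C, HLA-E, B2M and TAP1.

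With the replicate block, counting genes that moved one way in 4 of 4 pairs, covered length was lower in 3 genes, percentile higher in 2 (HLA-DQA1 and CIITA) and best-peak length lower in 2 (HLA-C and B2M). Over all genes 21.7% were lower in covered length and 16.2% higher in percentile by this count. For best-peak length that share is not given here. No p under 0.125 is possible with the block, so no call could stand. Leaving out each library gave 2 to 3 genes lower in covered length, 0 to 3 higher in percentile, 1 to 5 lower and 0 to 1 higher in best-peak length (5 without DMSO replicate 4) and 0 to 1 higher in number of peaks, where no exact p under 0.0571 is possible. Of all genes 6.95% to 13% were then lower in covered length and 4.66% to 11.2% higher in percentile. Without DMSO replicate 4, 26.0% of all genes had shorter best peaks. The difference in covered length ranged from -334 to 13.6 bp for TAP1, -144 to 225 bp for HLA-DPA1, -558 to 110.0 bp for HLA-DQA1 and -1336 to 23.7 bp for CIITA. Percentile ranged from -0.52 to 0.87 for HLA-E, -0.17 to 0.89 for B2M and -0.87 to 2.86 for HLA-DPA1, and TAP1 best-peak length from -195.75 to 40.1 bp.

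Among odd-numbered replicates (2 against 2) covered length was lower in 4 genes and higher in 1, percentile higher in 5, best-peak length lower in 6 and number of peaks higher in 1. Many genes separate with so few libraries: 30.7% of all genes were lower and 14% higher in covered length, and 37.7% were higher in percentile. CIITA covered length differed by 360.5 bp, percentile by 0.65 for HLA-E and 0.0075 for TAP1, and HLA-DPA1 best-peak length by -89 bp. Among even-numbered ones covered length was lower in 4 genes, percentile lower in 1 and higher in 2, best-peak length lower in 2 and higher in 1, and number of peaks higher in 1. Here 32.3% of all genes were lower in covered length, and 21.3% were lower and 15.8% higher in percentile. Covered length differed by -306.5 bp for HLA-DPA1 and 204 bp for HLA-DQA1, percentile by -0.55 for B2M and CIITA best-peak length by 55 bp. The shares of all genes for best-peak length and number of peaks are not given here for odd or even numbers. With 2 against 2, no exact p under 0.333 is possible. Read depth is unknown, and a list holds only peaks past its own threshold, so an absent call is not absent signal.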
